A study of Rattus norvegicus with 18 samples.

Results

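Enpp1 makes extracellular pyrophosphate, and the 4 genes set beside it take part in the same balance between pyrophosphate and phosphate: Alpl, Slc20a1, Slc20a2 and Mgp. Members were the probe sets whose annotation gave exactly 1 of these 5 symbols, which were 6 of the 31099 probe sets on the array. Slc20a2 had 2 probe sets and every other gene had 1, and all 6 were bright enough to be tested, among 21729 tested probe sets. Enpp1 was picked for its values after 2 months of diet, so those values are described here without a test, and the same holds for the other members in that comparison.

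Total RNA of mesenchymal stem cells, the stromal cells that adhere when marrow is cultured, was measured on 18 Affymetrix arrays. The cells came from Sprague-Dawley rats aged 6 weeks when feeding began, which were fed for 1, 2 or 4 months, on either a normal diet (ND, 100% basal diet) or one rich in fat (HFD), which gave 6 groups of 3 arrays. HFD was 60% basal diet with 20% lard, 10% sucrose and 10% egg yolk powder. All groups shared the same culture route, in which unsorted marrow was plated and passaged, so RNA from other adherent marrow cells can be present. The label called age on each sample repeats the feeding time, and the passage is given as 3 in the sample labels and as 1 in the series text. Whether each array came from its own rat is stated only as 3 per group, and p-values measure the spread between arrays, which may in part be technical.

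Pyrophosphate outside the cell blocks the growth of hydroxyapatite, the mineral of bone, while phosphate feeds it. ENPP1, a membrane enzyme, splits ATP into AMP and pyrophosphate, and tissue-nonspecific alkaline phosphatase, the product of Alpl, cleaves pyrophosphate into phosphate. The sodium-dependent transporters PiT-1 (Slc20a1) and PiT-2 (Slc20a2) carry phosphate into the cell, and matrix Gla protein (Mgp), which vitamin K activates, is a secreted inhibitor of calcification.

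Of 10 stromal markers 9 passed the filter for dim probe sets (3.22 log2 units); Thy1 read 11.71 to 12.13 on the log2 intensity scale over the 18 arrays and Pdgfra 9.80 to 11.29, while Vcam1 went down to 2.56 and Lepr was under the filter. Of 6 neutrophil and mast cell markers 3 passed the filter, with S100a9 at 1.65 to 2.17 but Camp up to 5.47, and of 7 endothelial markers 2 did, with Pecam1 at 1.86 to 2.90 but Tie1 up to 4.91. The osteoblast and osteocyte genes Bglap, Dmp1, Phex and Sost were under the filter, while Ibsp read 4.21 to 9.59. RNA of macrophage genes was present: all 22 measured passed the filter, with medians from 4.24 (C1qb) to 12.38 (Lyz2). These genes varied widely. The mean over the 19 with a value on every array ran from 4.12 on ND 1-month replicate 3 to 9.77 on ND 4-month replicate 2. On ND 1-month replicate 1, Alpl and Mgp have no value, because its column was moved to its probe sets, and their ND 1-month values rest on 2 arrays.

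Enpp1 stood highest in the cells of rats fed HFD for 2 months. The probe set 1370047_at read 11.21, 11.64 and 10.64 on HFD replicates 1, 2 and 3, and 8.50, 9.23 and 8.71 on the ND replicates of that time. Every HFD array lay above every ND array by more than 1 log2 unit, and also above all other 12 arrays. The group means were 11.16 ± 0.50 (SD, n = 3) and 8.82 ± 0.38, a difference of 2.35 ± 0.39 (SE) or 5.08-fold. Leaving out 1 array at a time gave 2.11 to 2.61. At 2 months the stromal marker mean also differed without overlap, at 8.96 to 9.11 on HFD and 9.44 to 9.76 on ND, while the smooth muscle mean overlapped, at 8.09 to 9.13 and 7.43 to 8.21. Their part in the Enpp1 values was not tested. The macrophage mean overlapped, at 5.14 to 7.83 on HFD and 5.83 to 9.46 on ND, and with it as a covariate the Enpp1 difference was 2.29. Of all tested probe sets 2.54% passed an adjusted p under 0.05 in limma at 2 months, and 11.8% had all HFD arrays above all ND arrays. Since Enpp1 was chosen in this comparison, nothing is read from its place among them. For that reason the SE, the leave-out range and the covariate value describe these arrays and are no check on the difference.

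**Figure D1:**
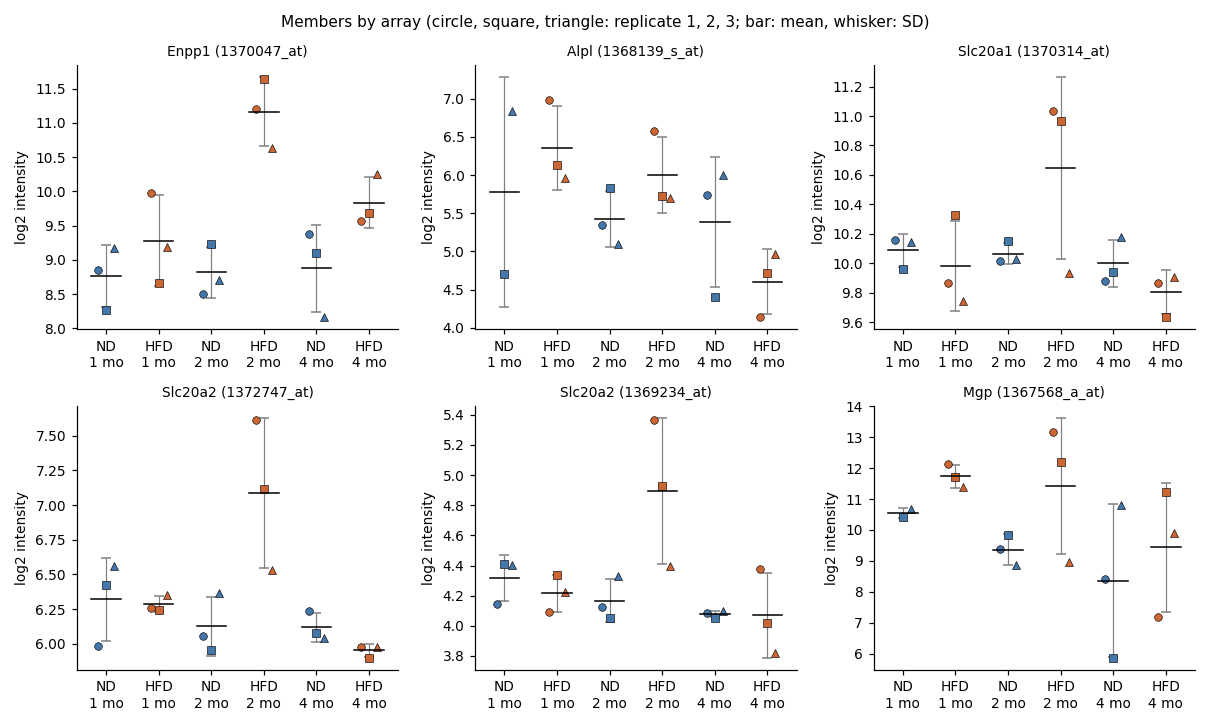
Log2 intensity of the 6 member probe sets on each array (y axis, own scale per panel) in the 6 diet and time groups (x axis; blue ND, orange HFD); symbols are replicates, bars are means and whiskers are SDs. Enpp1 on the 3 HFD 2-month arrays, from 10.64 to 11.64, lies above all other arrays, while Mgp covers 5.87 to 13.15.

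After 4 months Enpp1 read 9.56, 9.69 and 10.25 on the HFD arrays and 9.37, 9.10 and 8.16 on the ND arrays. The groups again did not overlap, but the closest arrays were 9.56 and 9.37. The difference was 0.96 ± 0.39 (SE, n = 3 per group; 95% interval 0.13 to 1.79), or 1.94-fold, and did not pass (limma adjusted p = 0.999, unadjusted p = 0.0268). At 4 months limma passed 0 of 21729 probe sets (0%), with 811 at an unadjusted p under 0.05, and 3.81% of probe sets had all HFD arrays above all ND arrays. ND replicate 3, the lowest of the 6 arrays, carried much of the difference, which was 0.60 without it. Macrophage list means covered 8.92 to 9.42 in HFD and 7.57 to 9.77 in ND, and the Enpp1 difference was 0.98 with that mean as a covariate.

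After 1 month the diets overlapped for Enpp1. The HFD arrays read 9.98, 8.66 and 9.19, and the ND arrays 8.85, 8.27 and 9.17. HFD replicate 1 was the highest, and HFD replicate 2 lay under 2 of the ND arrays. The difference of 0.51 ± 0.39 (SE, n = 3 per group) had a 95% interval of -0.32 to 1.34 and a limma adjusted p of 0.715. It was 0.16 without HFD replicate 1, and 0.26 without ND replicate 2. At 1 month limma passed 0 probe sets (0%), with 2124 at an unadjusted p under 0.05.

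Ordered by mean, the Enpp1 levels were 8.77 ± 0.46 (SD, n = 3) in ND at 1 month, 8.82 ± 0.38 in ND at 2 months, 8.88 ± 0.63 in ND at 4 months, 9.28 ± 0.66 in HFD at 1 month, 9.84 ± 0.37 in HFD at 4 months and 11.16 ± 0.50 in HFD at 2 months. The 3 ND groups thus lay within 0.11 of each other. Arrays of neighbouring groups overlapped in every step except the last, between HFD at 4 months (highest array 10.25) and HFD at 2 months (lowest array 10.64). In ND, 4 minus 1 month was 0.11 ± 0.39 (SE, adjusted p = 0.950), and in HFD it was 0.56 ± 0.39 (adjusted p = 0.724), in the same limma fit. Limma passed 0 probe sets (0%) in each of these time comparisons, with 2040 in ND and 1721 in HFD at an unadjusted p under 0.05. The ND value was -0.13 without ND 1-month replicate 2 and 0.47 without ND 4-month replicate 3. With the 1-month HFD replicate 2 left out the HFD value was 0.25, and with replicate 1 of that group left out it was 0.91. Dropping HFD 4-month replicate 3 gave 0.35. These time comparisons use the same arrays as the diet comparisons at 1 and 4 months.

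The diet effect on Enpp1 at 4 months exceeded that at 1 month by 0.45 ± 0.55 (SE; 95% interval -0.73 to 1.62), which did not pass (limma adjusted p = 1.00). Leaving out 1 array gave 0.09, without ND 4-month replicate 3, to 0.80, without HFD 1-month replicate 1, and array weights gave 0.05. That comparison passed 0 of all probe sets (0%), with 707 at an unadjusted p under 0.05. The mean of the diet effects at 1 and 4 months, a contrast added after seeing the data, was 0.73 ± 0.27 (SE; 95% interval 0.15 to 1.32). It did not pass either (adjusted p = 0.367, unadjusted p = 0.0178), and 8 of 21729 probe sets (0.0368%) did. Without 1 array it ran from 0.55, without ND 4-month replicate 3, to 0.89, without HFD 1-month replicate 2. Whether the diet difference at 2 months exceeded that at the other times was not tested, since Enpp1 was chosen on the former.

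**Figure D2:**
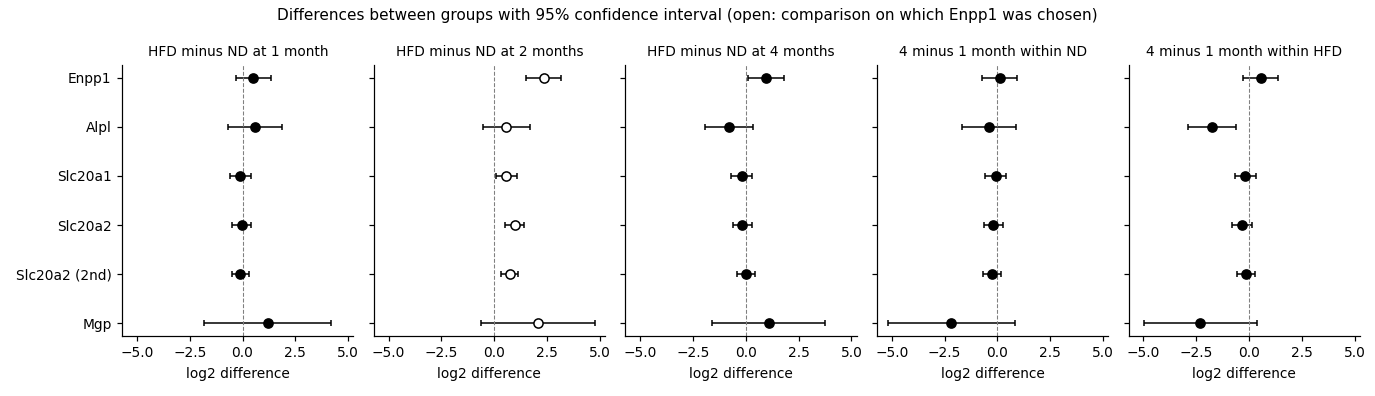
Log2 difference (x axis) for each member probe set (y axis) in 5 comparisons, with 95% intervals. Open circles mark the 2-month comparison on which Enpp1 was chosen. Its intervals are drawn as a description only and serve as no test of any member. At 4 months the Enpp1 interval runs from 0.13 to 1.79, and within HFD the Alpl interval for 4 minus 1 month lies below 0.

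Alpl, whose enzyme removes pyrophosphate, read 4.14 to 6.99 over its 17 arrays. Its probe set, 1368139_s_at, is of a type whose probes can match more than 1 transcript. On HFD it read 6.99, 6.13 and 5.96 at 1 month and 4.14, 4.72 and 4.96 at 4 months. All 4-month arrays lay below all 1-month arrays, as for 8.03% of all tested probe sets on HFD. The difference, -1.75 ± 0.53 (SE, n = 3 per group), had a 95% interval of -2.88 to -0.62 and an unadjusted p of 0.00513, and did not pass over all probe sets (limma adjusted p = 0.427). The adjusted p ran from 0.0526 to 0.926 over the alternatives. Macrophage list means differed between the same arrays, at 7.01 to 8.62 at 1 month and 8.92 to 9.42 at 4 months, and with that mean as a covariate the Alpl difference was -1.40. The smooth muscle mean was lower at 4 months without overlap (7.66 to 8.75, then 7.16 to 7.60), and the adipocyte mean went from 4.13 to 8.30 at 1 month to 4.39 to 4.48 at 4 months, with overlap. The part of these lists in the Alpl values was not tested. In these cultures of mixed cells, fewer cells of a type and less RNA per cell cannot be told apart.

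On ND, Alpl read 4.71 and 6.84 at 1 month, 5.35, 5.83 and 5.10 at 2 months and 5.74, 4.41 and 6.01 at 4 months. The ND 1-month arrays lay further apart than any other pair within a group. The change from 1 to 4 months on ND was -0.39 ± 0.59 (SE, 2 against 3 arrays, limma adjusted p = 0.863), and it was 0.67 without ND 1-month replicate 3. The diet difference at 1 month, with overlapping arrays, was 0.58 ± 0.59 (adjusted p = 0.800). It ran from -0.48 without ND replicate 2 to 1.65 without ND replicate 3, and was 1.22 with the macrophage covariate. At 2 months the HFD arrays read 6.58, 5.73 and 5.70 and overlapped ND, for a described difference of 0.58 ± 0.53, or 0.29 without HFD replicate 1 and 0.18 with the macrophage covariate. At 4 months HFD minus ND was -0.78 ± 0.53 (95% interval -1.91 to 0.35, adjusted p = 0.999), with ND replicate 2 among the HFD values; it was -1.27 without ND replicate 2 and -0.47 without ND replicate 3. The diet effect at 4 months minus that at 1 month was -1.36 ± 0.79 (adjusted p = 1.00), and ran from -2.43 without ND 1-month replicate 3 to -0.30 without ND 1-month replicate 2.

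On each array the Enpp1 value minus the Alpl value puts the gene of pyrophosphate production against that of its removal; the size of this number depends on the probes, so it was compared only between arrays. It was 4.63, 5.91 and 4.94 on HFD arrays at 2 months, against 3.15, 3.41 and 3.62 on ND. At 4 months it was 5.42, 4.97 and 5.29 on HFD and 3.63, 4.69 and 2.16 on ND. At 1 month it was 2.99, 2.53 and 3.23 on HFD, and 3.56 and 2.33 on the ND arrays with both values. The HFD arrays lay above the ND arrays at 2 and 4 months and among them at 1 month. At 2 months the Enpp1 part alone differed without overlap, while at 4 months Enpp1 was 0.96 higher and Alpl 0.78 lower in the means, neither past the test. As this difference was built on genes already seen, it was given no test. Its 2-month values contain the Enpp1 values on which that gene was chosen, so nothing further is read from their separation. For the lack of overlap at 2 and 4 months no share over other gene pairs is given.

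**Figure D3:**
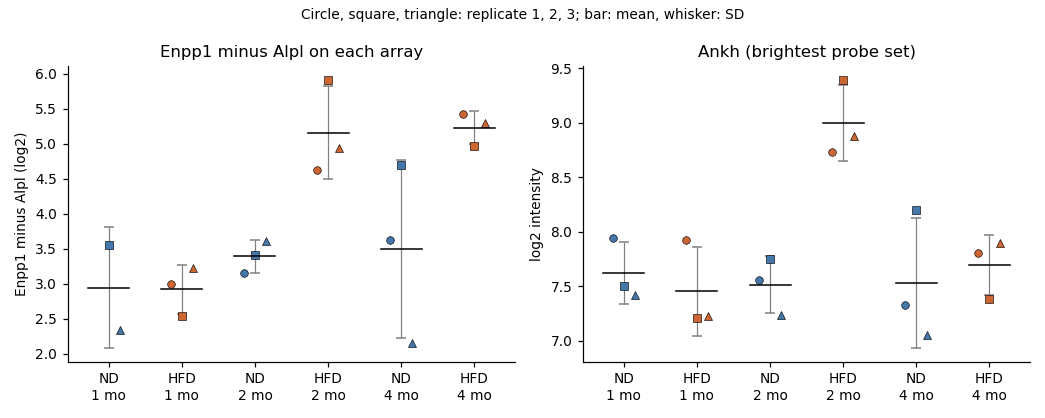
Left, the log2 value of Enpp1 minus that of Alpl on each array; right, the log2 intensity of the brightest Ankh probe set, by diet and time (x axis; blue ND, orange HFD; symbols replicates, bars means, whiskers SDs). The Enpp1 minus Alpl value on HFD is 4.63 to 5.91 at 2 months and 4.97 to 5.42 at 4 months, and Ankh lies at 8.73 or above only on the HFD 2-month arrays.

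Slc20a1, the phosphate importer PiT-1, kept a narrow range outside HFD at 2 months. Its 15 other arrays read 9.63 to 10.33, whereas HFD 2-month replicates 1 and 2 read 11.04 and 10.97. HFD 2-month replicate 3, at 9.93, lay below the ND arrays of that time, which read 10.02, 10.15 and 10.03. The described difference at 2 months was therefore 0.58 ± 0.23 (SE) with overlapping arrays, 0.94 without HFD replicate 3 and 0.38 without HFD replicate 1. Differences in the tested comparisons were small. HFD minus ND was -0.11 ± 0.23 (95% interval -0.61 to 0.39, limma adjusted p = 0.931) at 1 month and -0.20 ± 0.23 (-0.70 to 0.30, adjusted p = 0.999) at 4 months. From 1 to 4 months the change was -0.09 on ND (-0.18 to -0.03 with 1 array left out) and -0.18 on HFD (-0.30 to -0.003 with 1 array left out), and the diet effects differed by -0.09 ± 0.33 (adjusted p = 1.00). The 1-month value was 0.01 without HFD replicate 3.

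Slc20a2, the importer PiT-2, was read by the probe sets 1372747_at and 1369234_at, whose values correlated at r = 0.94 over the 18 arrays. On the brighter 1372747_at HFD at 2 months read 7.61, 7.12 and 6.53, and ND read 6.06, 5.95 and 6.36. The other probe set read 5.36, 4.93 and 4.40 against 4.12, 4.05 and 4.33. On both, HFD lay above ND without overlap, as for 11.8% of all tested probe sets. Replicate 3 was the lowest HFD array and close to the ND arrays, the order also seen for Slc20a1. The described differences were 0.96 ± 0.21 and 0.73 ± 0.20 (SE), and 0.70 and 0.49 without HFD replicate 1.

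At the other times Slc20a2 differed little between diets. At 4 months 1372747_at read 5.98, 5.90 and 5.98 on HFD and 6.24, 6.08 and 6.04 on ND, so all HFD arrays were lower, as they were for 4.73% of tested probe sets. The gap between the closest arrays was under the within-group SD of 0.27, and the difference of -0.17 ± 0.21 (SE, 95% interval -0.62 to 0.29) did not pass (limma adjusted p = 0.999); it was -0.08 with the macrophage covariate. The other probe set gave -0.01 ± 0.20 with overlapping arrays. At 1 month the differences were -0.04 ± 0.21 (adjusted p = 0.975) and -0.10 ± 0.20 (adjusted p = 0.917). At 1 month the arrays of 1372747_at read 6.26, 6.25 and 6.35 on HFD and 5.99, 6.42 and 6.56 on ND.

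Between 1 and 4 months neither Slc20a2 probe set passed on either diet. On ND the changes were -0.21 ± 0.21 (SE, limma adjusted p = 0.791) for 1372747_at and -0.24 ± 0.20 (adjusted p = 0.727) for 1369234_at. The latter had all 4-month arrays below all 1-month arrays, as had 8.51% of probe sets in that comparison. On HFD they were -0.33 ± 0.21 (adjusted p = 0.695) and -0.15 ± 0.20 (adjusted p = 0.859). The former had all 4-month arrays lower, as had 8.03% of probe sets on HFD. With the macrophage mean as a covariate the change of 1372747_at was 0.07 on ND and -0.13 on HFD. The diet effects at 4 and 1 months differed by -0.13 ± 0.30 and 0.09 ± 0.28 (adjusted p = 1.00 for each).

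Mgp, the vitamin K-dependent inhibitor of calcification, was the most variable member, with a within-group SD of 1.69 against 0.25 to 0.71 for the others. At 2 months it read 13.15, 12.19 and 8.95 on HFD and 9.40, 9.85 and 8.85 on ND. HFD replicates 1 and 2 were the highest of all 17 arrays with a value, and replicate 3 lay among the ND arrays. The described difference was 2.06 ± 1.25 (SE), 3.30 without HFD replicate 3 and 1.20 without HFD replicate 1. HFD 2-month replicate 1 was also the array where the cartilage proteoglycan gene Acan read 9.07, against 3.22 to 5.31 on the other arrays, and its macrophage mean was the lowest but 1 of the 18, at 5.14. With the macrophage mean as a covariate the described Mgp difference was 1.04. The part of the Acan signal in the Mgp value was not tested.

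At 1 month Mgp read 12.12, 11.72 and 11.37 on HFD, above the 10.44 and 10.67 of the ND arrays, and 5.92% of tested probe sets had all HFD arrays higher. The difference of 1.18 ± 1.40 (SE, 2 ND arrays against 3; 95% interval -1.82 to 4.19) did not pass (limma adjusted p = 0.847). The ND arrays used here had macrophage means of 5.57 and 4.12, against 7.01 to 8.62 on HFD, and the difference was 2.83 with that mean as a covariate (adjusted p = 0.432). At 4 months the arrays spread over 7.17, 11.24 and 9.90 on HFD and 8.40, 5.87 and 10.81 on ND. The 4-month difference was 1.07 ± 1.25 (adjusted p = 0.999), and ran from -0.17 without ND replicate 2 to 2.30 without ND replicate 3.

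From 1 to 4 months Mgp changed by -2.30 ± 1.25 (SE, limma adjusted p = 0.664) on HFD and by -2.20 ± 1.40 (adjusted p = 0.657) on ND. On HFD all 4-month arrays lay below all 1-month arrays. That held for 3 of the 6 member probe sets in that comparison, those of Alpl and Mgp and 1372747_at of Slc20a2, and for 8.03% of all tested probe sets. The HFD change was -1.17 without HFD 4-month replicate 1, and -1.39 with the macrophage mean as a covariate. The ND change was -0.95 without ND 4-month replicate 2, the array with the lowest Mgp and the highest macrophage mean, and -0.04 with the covariate. The diet effects at 4 and 1 months differed by -0.11 ± 1.87 (adjusted p = 1.00).

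**Figure D4:**
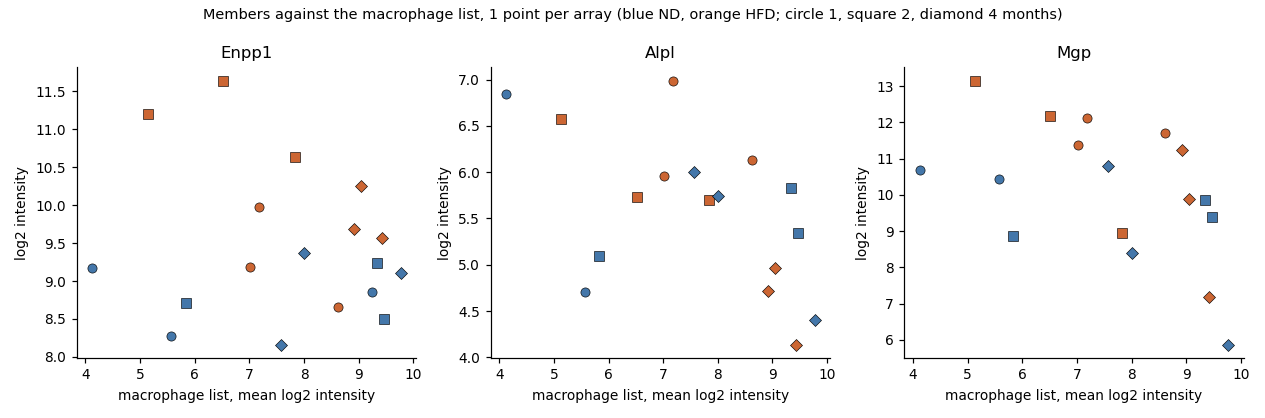
Log2 intensity of Enpp1, Alpl and Mgp (y axes) against the mean log2 intensity of the macrophage list (x axis), 1 point per array (blue ND, orange HFD; circle 1, square 2, diamond 4 months). Arrays of a group are spread along the x axis, with HFD 2-month arrays from 5.14 to 7.83, and the lowest Mgp value, 5.87, lies on the array with the highest macrophage mean, 9.77.

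The members moved together only in part. Over the 18 arrays Slc20a1 correlated with the Slc20a2 probe sets at r = 0.80 and 0.83, and Enpp1 with 1372747_at at r = 0.64. Alpl correlated with Mgp at r = 0.68 and with Enpp1 at r = 0.20, both over 17 arrays. These coefficients describe arrays that share groups and cell makeup, and the HFD 2-month arrays weigh heavily in them. HFD 2-month replicates 1 and 2 were the highest arrays of all for Enpp1, Slc20a1, both Slc20a2 probe sets and Mgp, but not for Alpl.

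The genes closest to Enpp1 over the 18 arrays, among 10563 genes compared, were Csrp2 (r = 0.91), Cast (0.88), Ccdc50 (0.88), Zdhhc8 (0.88) and Nes (0.87). Csrp2 encodes a LIM-domain protein of smooth muscle and other mesenchymal cells and ranged from 5.46 to 9.61. Cast encodes the calpain inhibitor calpastatin and ranged only from 8.68 to 9.15, and Nes encodes the intermediate filament protein nestin (4.86 to 6.75). The genes that ran most opposite were Synpo (r = -0.89), Rtn3 (-0.89), Car5b (-0.88), C1r (-0.87) and Zdhhc3 (-0.86). Synpo, for the actin-associated synaptopodin, ranged from 7.97 to 9.80, and C1r, a protease of the classical complement pathway, from 8.58 to 10.24. These are descriptions with no test, since the arrays fall into groups and the HFD 2-month arrays set Enpp1 apart.

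Around the members, 5 lists held 52 other tested genes of pyrophosphate, phosphate and mineral handling. Only Ankh passed in any of the diet or time comparisons listed above, and only at 2 months, where 2.54% of all probe sets passed. Ankh encodes a membrane protein that exports ATP and thereby pyrophosphate from the cell. It rose on HFD at 2 months, with 8.73, 9.40 and 8.88 on the HFD arrays and 7.56, 7.75 and 7.23 on the ND arrays. The groups lay nearly 1 log2 unit apart at their closest, and the stromal marker mean given above differed between the same arrays. The difference was 1.49 ± 0.29 (SE, n = 3 per group), or 2.81-fold, with a limma adjusted p of 0.0207, and the other Ankh probe set gave 1.31 (adjusted p = 0.0269). The call was lost when only the compared arrays were fitted (adjusted p = 0.0865), and without ND replicate 1 (0.0837), HFD replicate 1 (0.0551) or HFD replicate 2 (0.103), with the difference between 1.29 and 1.62. With the macrophage mean as a covariate it was 1.71 (adjusted p = 0.00959). HFD minus ND for Ankh was -0.17 at 1 month (adjusted p = 0.906) and 0.17 at 4 months (adjusted p = 0.999), with overlapping arrays. The 2-month arrays are those on which Enpp1 was chosen, and the lists were set with earlier results of these data known. The 2-month p-values of Ankh are therefore no independent check.

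The other 14 tested genes of pyrophosphate and nucleotide enzymes did not pass at 2 months, and the list's median difference was -0.09, beside -0.04 over all 11446 tested genes. At 1 month the list's gene with the largest statistic was Enpp2, the secreted lysophospholipase autotaxin, at 1.14 ± 0.59 (SE, limma adjusted p = 0.563). It read 5.09, 4.00 and 4.45 on HFD and 3.30 and 3.44 on the ND arrays with a value. At 4 months it was the inorganic pyrophosphatase Ppa1, which cleaves pyrophosphate inside the cell, at -0.39 ± 0.19 (adjusted p = 0.999). Ppa1 read 9.12, 9.42 and 9.54 on HFD and 9.84, 9.40 and 10.00 on ND, with overlap. The transporter gene Abcc6, which supports pyrophosphate release, and Enpp6 were under the filter.

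Phosphate transport and phosphate hormones had 7 tested genes, of which 0 passed in either direction at 2 months, with a median of -0.77. Stc2, for the secreted glycoprotein stanniocalcin 2, came closest. It read 4.32, 4.62 and 5.86 on HFD and 6.64, 6.31 and 6.42 on ND, and differed by -1.52 ± 0.39 (SE, limma adjusted p = 0.0556). Nherf1, a scaffold protein of phosphate transporters in the kidney, stood at -0.99 ± 0.39 (adjusted p = 0.172) with overlapping arrays. Xpr1, the phosphate exporter, had the largest statistic of the list at 1 month, at -0.31 ± 0.13 (adjusted p = 0.439). Fgf23, its co-receptor Kl and the Slc34 transporters were under the filter.

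**Figure D5:**
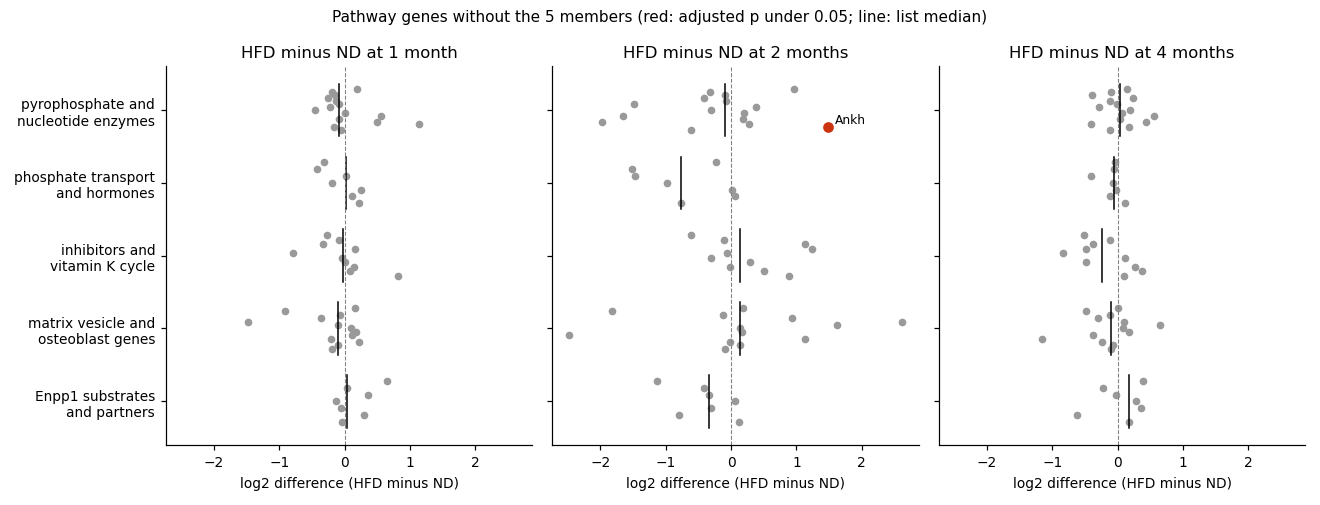
Log2 difference between HFD and ND (x axis) of each of the 52 tested pathway genes, without the members, in 5 lists (y axis) at 1, 2 and 4 months; vertical lines are list medians and red marks a gene with an adjusted p under 0.05. Only Ankh at 2 months, at 1.49, is red, and the points spread most widely at 2 months.

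Mineralization inhibitors and the vitamin K cycle had 10 tested genes and 0 that passed at 2 months (median 0.13). Osteopontin, Spp1, a secreted phosphoprotein that binds mineral, read 12.91, 12.25 and 11.68 on HFD and 11.33, 10.93 and 10.85 on ND. Its arrays did not overlap, with HFD higher, as for 11.8% of all tested probe sets. The difference was 1.24 ± 0.37 (SE, limma adjusted p = 0.0895). The level was not particular to HFD: the Spp1 mean was 12.28 on HFD at 2 months and 12.23 on ND at 4 months. On ND at 1 month it was 10.73 (2 arrays), with all ND 4-month arrays higher. That change on ND did not pass (limma adjusted p = 0.370), and the share of all probe sets is not given. Vkorc1l1, a vitamin K epoxide reductase, differed by -0.61 ± 0.22 (adjusted p = 0.141) at 2 months and by -0.52 ± 0.22 (adjusted p = 0.999) at 4 months. At 4 months its arrays read 5.95, 5.93 and 6.15 on HFD and 6.57, 6.17 and 6.83 on ND. All HFD arrays were lower there, as for 4.73% of all tested probe sets. From 1 to 4 months Gas6, another vitamin K-dependent protein, differed by -1.38 ± 0.39 on HFD (adjusted p = 0.402). On ND its mean also went down, from 10.47 at 1 month to 9.58 at 4 months.

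Matrix vesicle and osteoblast genes had 13 tested genes, and again 0 passed at 2 months (median 0.14). Bone sialoprotein, Ibsp, which nucleates mineral, read 9.59, 8.80 and 7.14 on HFD and 4.90, 6.42 and 6.37 on ND, a difference of 2.62 ± 0.84 (SE, limma adjusted p = 0.106). The osteoblast transcription factor Dlx5 read 6.41, 6.30 and 6.47 on HFD and 3.86, 4.70 and 5.75 on ND, with a difference of 1.62 ± 0.52 (adjusted p = 0.104). Neither gene's groups overlapped at 2 months, with HFD higher, as for 11.8% of all tested probe sets. In the list 8 genes were higher and 5 lower. Bmp4 was lower on HFD without overlap (4.77 to 5.84, against 6.52 to 8.62 on ND). So was Smpd3 (2.31 to 2.76, against 3.06 to 6.52), and the share of all probe sets is not given. At 1 month Ibsp differed by -1.48 ± 0.94 (limma adjusted p = 0.654), with ND arrays at 8.21 and 6.02. Dlx5 at 1 month read up to 6.30 on ND and 6.34 on HFD. At 4 months Bmp2, a bone morphogenetic protein, stood at -1.16 ± 0.66 (adjusted p = 0.999). Between 4 and 1 months Bmp4 differed by -2.47 ± 0.80 on HFD (adjusted p = 0.467) and by -1.98 ± 0.80 on ND (adjusted p = 0.472). The annexin Anxa6, a protein of matrix vesicles, differed between these times by -0.97 ± 0.24 on HFD (adjusted p = 0.364) and by -0.51 ± 0.24 on ND (adjusted p = 0.532).

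Among 7 tested genes for other substrates and partners of ENPP1, 0 passed at 2 months (median -0.34). ENPP1 also hydrolyses the cyclic dinucleotide that activates STING, and Sting1 stood at -1.14 ± 0.86 (SE, limma adjusted p = 0.462) at 2 months. It read 4.14, 4.25 and 5.18 on HFD and 6.71, 6.33 and 3.94 on ND. The same ND arrays at 2 months ordered alike for macrophage genes, with means of 9.46, 9.34 and 5.83, whose part in the Sting1 values was not tested. The insulin receptor, Insr, which ENPP1 can bind, stood at -0.30 ± 0.25 (adjusted p = 0.496) at 2 months and at 0.36 ± 0.25 (adjusted p = 0.999) at 4 months. The insulin receptor substrate gene Irs1 was under the filter.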

How the data were processed

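RNA from 18 cultures was measured on Affymetrix rat arrays. Each deposited value is the linear intensity of a probe set, summarised with RMA per the submitters' processing notes, with no version given. Values were put on the log2 scale as they stood. For ND 1-month replicate 1, the deposited column was 1343 rows too high in the table; once moved down it correlated with the average of the remaining arrays at 0.990, where it had been 0.0909, and 1066 tested probe sets then have no value on it. Gene symbols came from the platform annotation (20832 probe sets with 1 symbol, 436 with several, 9831 with none), and all 6 member probe sets matched the RefSeq gene table of GRCr8 by gene identifier. The 57 controls and the dimmest 30% of probe sets by mean log2 (at or under 3.22, or 9.34 in intensity) were left out. Array medians lay between 25.4 and 27.1 in intensity. Precision is limited by having 3 arrays a group.

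Group means were estimated over all 18 arrays together with limma 3.58.1 in R 4.3.3, with 12 residual and 2.43 prior degrees of freedom. Tests are two-sided, and p-values were adjusted by Benjamini-Hochberg over the 21729 tested probe sets, with 0.05 as threshold. Genes with several probe sets are represented by the brightest tested one, except members. The members and gene lists were chosen with earlier results of these data known. Named genes were all members, up to 4 passing genes per list and comparison, or the 2 with the largest moderated t where none passed, and the 5 highest and 5 lowest correlations with Enpp1; fewer were printed where space was short. On simulated data for the 4-month comparison (21729 probe sets, 3 runs) 69% of 2-fold and 92% of 4-fold changes were recovered, with a mean of 5.67 false calls. Simulated probe sets varied independently. These rates are averages over the changed probe sets and do not hold for a given member. Member SEs at 4 months ran from 0.20 to 1.25, so a change that did not pass is not read as absent.

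Pairing by replicate number was checked: the residuals of same-numbered arrays had a mean correlation of -0.0235 over 45 pairs, from -0.571 to 0.671, so the numbers were not treated as pairs. Alternatives covered the filter, quantile normalization, median centring, an intensity trend, array weights, the compared arrays alone, averaged probe sets, a replicate block, the macrophage mean as a covariate, and each array left out in turn.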

Additional observations from a re-analysis of the deposited data

Results flagged for a closer look

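Slc20a2 (1372747_at) had non-overlapping diet groups in opposite order at 2 feeding times. At 2 months all 3 HFD arrays lay above all 3 ND arrays, as for 11.8% of tested probe sets, with a log2 difference of 0.96. At 4 months all 3 HFD arrays lay below all 3 ND arrays, with a difference of -0.17. The closest 4-month arrays read 5.98 on HFD and 6.04 on ND. The 4-month difference did not pass (limma adjusted p = 0.999), and 4.73% of tested probe sets had all HFD arrays lower there. The difference between these effects was not tested, since the 2-month comparison served to choose Enpp1. The other Slc20a2 probe set stood at 0.73 and -0.01.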

How the results depend on the processing

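No member passed an adjusted p under 0.05 at 1 or 4 months, in the time comparisons or in the difference of diet effects under any of the 28 alternatives; the second Slc20a2 probe set has no value with the dimmest 50% left out or with probe sets averaged. The mean of the diet effects at 1 and 4 months was recomputed for Enpp1 only. Enpp1 kept its sign in both tested diet comparisons and in their mean under all of them. Quantile normalization turned Slc20a2 at 1 month to 0.0337. The macrophage covariate turned it to 0.13, its second probe set to 4e-04 at 1 month and 0.0459 at 4 months, and the change on ND to 0.44 for Alpl and 0.0732 for Slc20a2. Array weights turned the difference of the 4- and 1-month diet effects to 0.0425 for Slc20a1 and 0.12 for Mgp. Pathway genes called at 2 months, 1 higher and 0 lower, became 7 higher and 9 lower with array weights, 0 higher with the compared arrays alone, and 1 lower with the dimmest 50% left out and 2 lower with the macrophage covariate; 4 minus 1 month on HFD gave 1 higher and 5 lower with array weights. The cause was not tested. No share of all probe sets called is given for these alternatives, so the counts are not read as a result about the lists.

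Leaving out 1 array gave, at 1 month, -0.48 to 1.65 for Alpl, -0.28 to 0.0093 for Slc20a1 and -0.21 to 0.0792 for Slc20a2. At 4 months it gave -0.16 to 0.12 for the second Slc20a2 probe set and -0.17 to 2.30 for Mgp. The change on ND ran from -0.13 to 0.47 for Enpp1 and from -1.45 to 0.67 for Alpl. The difference of diet effects ran from -0.21 to 0.086 for Slc20a1, from -0.24 to 0.0415 and from -0.058 to 0.22 for the Slc20a2 probe sets, and from -1.35 to 1.12 for Mgp. Pathway genes called at 2 months ran from 0 (without ND replicate 1, among others) to 4 higher and from 0 to 2 lower, both highest without HFD replicate 3. These counts too have no share of all probe sets beside them. With a replicate block the Enpp1 difference was 0.96 at 4 months (limma adjusted p = 0.999) and 0.51 at 1 month (adjusted p = 0.747), and the block changed no call on a member or on Ankh (adjusted p = 0.0283).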
